A study of Mus musculus with 12 samples.

Results

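The MyoD family of myogenic factors comprises 4 genes, Myod1, Myf5, Myog and Myf6, and all 4 were found by symbol among the 23446 genes of the deposited table. The RNA came from C2C12, a mouse myoblast line of skeletal muscle origin. The cells were kept in differentiation medium (DM), in which they leave the cell cycle and fuse, or in growth medium (GM), in which they divide. In each medium they received acetoacetate (AA), a ketone body, for 12 h, or PBS in the control cultures. The groups DM-AA, DM-PBS, GM-AA and GM-PBS hold 3 libraries apiece, and the question was which mRNAs answer to AA in dividing and in differentiating cells. The labels give neither the salt or dose of AA, nor how long cells had been in DM, nor whether each library was a culture of its own. The p-values therefore measure the spread among these libraries, which may be technical.

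The family members are basic helix-loop-helix transcription factors that bind the E-box, CANNTG, as dimers with E proteins such as Tcf3 and Tcf12. Myod1 and Myf5 commit cells to the muscle lineage and are made in dividing myoblasts. Myog (myogenin) drives terminal differentiation, and Myf6 (MRF4) is known mainly from differentiating and mature fibres. Id proteins hold back the family by binding the E proteins, and Mef2 factors act beside it on muscle genes.

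The 4 genes share a structure of 3 exons in the GENCODE M21 annotation, and no exon of theirs overlaps one of another gene. Myod1 lies on chromosome 7 and Myog on chromosome 1. Myf5 and Myf6 lie side by side on the minus strand of chromosome 10, with 6719 bases between them on GRCm38; the reads themselves were aligned to mm9. A stretch of coding sequence chosen by a search for the windows most like one of Myod1 is printed to show how far reads of 1 member could be taken for another. Each line holds 150 bases of the GENCODE M21 coding sequence, 5′ to 3′, and capitals mark the 89 bases (59.3%) that are the same in all 4 genes.
Myod1: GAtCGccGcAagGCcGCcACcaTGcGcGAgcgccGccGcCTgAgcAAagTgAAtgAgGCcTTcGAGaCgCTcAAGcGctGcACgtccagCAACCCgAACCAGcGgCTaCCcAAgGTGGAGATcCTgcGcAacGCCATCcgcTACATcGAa
Myf5: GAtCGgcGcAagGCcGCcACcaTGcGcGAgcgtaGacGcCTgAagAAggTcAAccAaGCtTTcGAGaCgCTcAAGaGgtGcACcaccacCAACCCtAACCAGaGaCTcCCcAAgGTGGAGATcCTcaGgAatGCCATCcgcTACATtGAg
Myog: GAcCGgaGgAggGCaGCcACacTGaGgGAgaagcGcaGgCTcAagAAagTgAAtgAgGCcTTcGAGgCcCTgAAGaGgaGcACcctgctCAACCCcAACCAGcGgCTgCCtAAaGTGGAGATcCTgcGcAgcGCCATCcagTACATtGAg
Myf6: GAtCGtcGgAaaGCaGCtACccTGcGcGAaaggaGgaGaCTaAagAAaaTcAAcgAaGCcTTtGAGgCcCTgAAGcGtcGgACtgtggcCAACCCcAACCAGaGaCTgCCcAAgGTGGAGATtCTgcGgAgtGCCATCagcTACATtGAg
Within this stretch Myod1 and Myf5 were the most alike pair, at 82% identity, and Myf5 and Myog the least, at 70%. Over the whole transcripts the longest run of bases shared without a mismatch was 26 bases for Myod1 and Myf5, 21 for Myod1 and Myog, and 12 to 14 for the other pairs. The read length is not given in the sources used here.

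RefSeq promoter sequences, from 250 bases before the annotated start to 50 after it, were matched for 2 of the 4 members, Myog and Myf5. They are shown because the results turn on Myog, whose mRNA differs most between the groups, while Myf5 behaves otherwise. Capitals mark E-boxes (CANNTG), the MEF3 element known from muscle promoters (TCAGGTTNC) and the TATA box (TATAAA), each searched on both strands, and no match overlaps another.
Myog, GRCm38.p6 chr1:134289754-134290053, plus strand: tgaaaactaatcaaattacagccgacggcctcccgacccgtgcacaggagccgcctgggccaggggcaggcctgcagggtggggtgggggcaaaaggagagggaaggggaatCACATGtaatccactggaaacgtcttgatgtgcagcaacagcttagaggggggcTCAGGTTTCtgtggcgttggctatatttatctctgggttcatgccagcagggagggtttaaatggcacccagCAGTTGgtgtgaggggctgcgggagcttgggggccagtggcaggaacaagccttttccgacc
Myf5, GRCm38.p6 chr10:107486085-107486384, minus strand: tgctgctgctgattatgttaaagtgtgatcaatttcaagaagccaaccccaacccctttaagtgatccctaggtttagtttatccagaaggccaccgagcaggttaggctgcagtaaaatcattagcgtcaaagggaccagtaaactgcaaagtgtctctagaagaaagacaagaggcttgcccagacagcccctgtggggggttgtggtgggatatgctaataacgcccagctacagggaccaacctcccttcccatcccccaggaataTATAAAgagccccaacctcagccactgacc
The Myog promoter held 2 E-boxes, CACATG at -138 to -133 and CAGTTG at -12 to -7 from the start, and 1 MEF3 element, TCAGGTTTC, at -84 to -76. The Myf5 window held neither, and had 1 match to the TATA box, TATAAA. That match lies at 20 to 25 from the annotated start, after it and not before it. Of 32851 promoters of 300 bases, 72.3% held an E-box, 1.22% a MEF3 element and 13.6% a TATA box. The strict MEF2 consensus was found in neither window and in 3.19% of all promoters. The Myog window holds ctatatttat, which departs from that consensus at its last base only. The search therefore does not show that Myog lacks a MEF2 site. A match is a run of letters and not a measured binding site.

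The depth of a library, as its sum of reads in genes, was 8027518 to 8245402 in DM-AA, 7959519 to 9893564 in DM-PBS, 8484417 to 8801619 in GM-AA and 8292006 to 8965129 in GM-PBS. Of all genes, 12230 had enough reads to be tested, among them Myod1, Myf5 and Myog but not Myf6. The myoblast label was borne out by Des, a muscle intermediate filament, at group means of 1451 to 1789 CPM (reads scaled by library depth), while the immune markers Ptprc and Itgam and the epithelial marker Epcam had at most 1 read per library and the adipocyte gene Plin1 had 0 in all 12. Other markers of such cells were present: the epithelial keratin Krt19 had 235 to 737 reads per library, the epithelial cadherin Cdh1 had 2 to 10 and the macrophage marker Cd68 had 13 to 36. Among adipocyte genes, Cebpa had 97 to 299 reads per library and Pparg 25 to 95. On the myoblast side, Chodl had at most 1 read per library. The summed level of 24 markers of other cell types moved with the groups, at 429 to 465 CPM in DM-AA, 587 to 590 in DM-PBS, 649 to 672 in GM-AA and 802 to 845 in GM-PBS. Of the 8 of them with enough reads to be tested, 5 fell and 0 rose with AA in each medium, while of 9 tested myoblast markers 3 rose and 2 fell in GM and 3 rose and 3 fell in DM. Among all tested genes, 9.76% rose and 11% fell with AA in GM, and 12.6% rose and 13.8% fell in DM. The myoblast markers Des, Cdh15 and Itga7 are also on the list of family targets used below. Most of the summed level of the 24 markers came from Tagln, Sox9, Runx2 and Krt19, and its part in the results was not tested. In RNA from whole cultures, fewer cells of a type and less RNA per cell cannot be told apart.

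Myog was the member that differed most between the groups. Its level was 53.6, 61.0 and 63.5 RPKM (reads scaled by exon length and library depth) in the DM-AA libraries and 30.2, 29.5 and 32.3 RPKM in the DM-PBS libraries. In growth medium it was 5.41, 6.60 and 7.45 RPKM in GM-AA and 4.39, 5.35 and 5.42 RPKM in GM-PBS. All 6 DM libraries lay above all 6 GM libraries, all DM-AA libraries lay above all DM-PBS libraries, and the 2 GM groups touched at their edges. Within its group the Myog mean exceeded that of 96.2% of the genes with a read in DM-AA, 90.7% in DM-PBS, 57.6% in GM-AA and 51.9% in GM-PBS.

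Myod1 stood apart in a single group. Its level was 60.5, 60.8 and 60.2 RPKM in DM-AA, 57.2, 56.8 and 58.7 RPKM in DM-PBS, 57.4, 63.2 and 63.4 RPKM in GM-AA and 77.7, 79.4 and 74.1 RPKM in GM-PBS. The GM-PBS libraries were all higher than the other 9, which spanned 56.8 to 63.4 RPKM. Myf5 showed the reverse order at its low end. It measured 20.4, 22.5 and 23.3 RPKM in DM-AA, 17.6, 18.1 and 18.8 RPKM in DM-PBS, 19.6, 19.8 and 23.1 RPKM in GM-AA and 12.4, 13.5 and 13.96 RPKM in GM-PBS. The GM-PBS libraries were the 3 lowest of the 12.

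Myf6 was close to the detection limit in every group. It had 9, 4 and 9 reads in DM-AA, 11, 6 and 9 in DM-PBS, 4, 6 and 11 in GM-AA and 4, 3 and 5 in GM-PBS, which correspond to 0.187 to 0.656 RPKM over the 12 libraries. The group sums were 22 reads in DM-AA (exact 95% Poisson interval 13.8 to 33.3), 26 in DM-PBS (16.98 to 38.1), 21 in GM-AA (12.999 to 32.1) and 12 in GM-PBS (6.20 to 20.96). These intervals cover counting error only, and all 4 overlap.

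**Figure D1:**
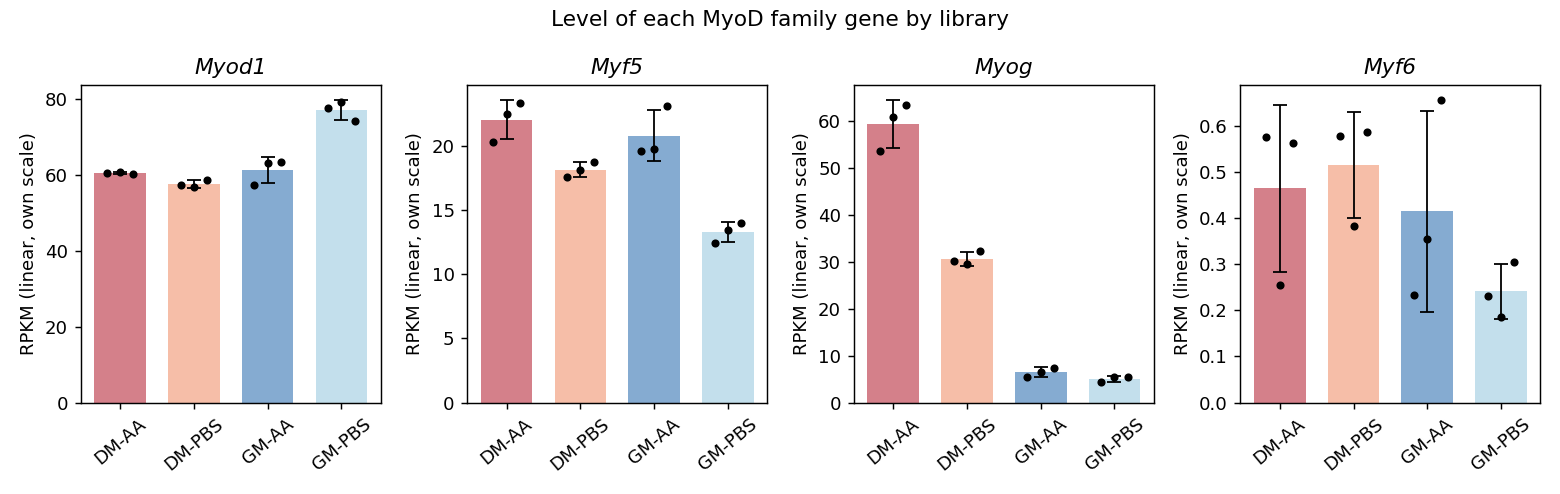
Level of each member in RPKM (linear vertical axes, each panel on its own scale) in the 4 groups; bars are means, whiskers SD and points the 3 libraries of a group. Myog is highest in DM-AA at 53.6 to 63.5 RPKM, Myod1 is high in GM-PBS alone at 74.1 to 79.4 RPKM, Myf5 is lowest in GM-PBS at 12.4 to 13.96 RPKM, and Myf6 reaches 0.656 RPKM at most.

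In growth medium, AA was followed by a higher Myf5 and a lower Myod1. Myf5 rose by 0.64 ± 0.072 (log2 fold change ± SE, n = 3 libraries per group), or 1.56-fold (edgeR adjusted p = 3.50e-08), and averaged 20.8 ± 1.97 RPKM in GM-AA and 13.3 ± 0.793 RPKM in GM-PBS (SD). Myod1 fell by 0.34 ± 0.049 (edgeR adjusted p = 3.52e-06) and averaged 61.3 ± 3.37 RPKM in GM-AA and 77.1 ± 2.69 RPKM in GM-PBS. Neither gene's libraries overlapped between the groups. How many of all tested genes show no such overlap was not counted, so this is a description only. Myog rose by 0.35 ± 0.13 (edgeR adjusted p = 0.0489), at 6.49 ± 1.02 RPKM in GM-AA and 5.05 ± 0.575 RPKM in GM-PBS, and its RPKM ranges met. All 3 tested members thus passed a 5% false discovery rate (FDR), which 20.7% of all tested genes did (9.76% higher and 11% lower). Of the 2534 genes called, 47.12% were higher, and 58.72% of 2662 when libraries were scaled by total count alone.

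The Myog call in GM is weak. It was lost without GM-PBS 1 (edgeR adjusted p = 0.227), GM-PBS 2 (0.0531), GM-PBS 3 (0.0542), GM-AA 2 (0.114), GM-AA 3 (0.275), DM-PBS 1 (0.0504) or DM-AA 2 (0.0531), and when only the GM groups were fitted (0.0587). Log2 fold changes of AA also fell with the GC content of transcripts across all tested genes, with a Spearman's rho of -0.274 in GM and -0.266 in DM. Myod1 has a GC-rich transcript (58.95%) and Myf5 a GC-poor one (41.6%). The 1338 tested genes within 2 points of the GC content of Myod1 had a median change of -0.089 in GM, and the 1679 near Myf5 one of 0.067. After removal of the trend with GC and length in each library, Myod1 fell by 0.27 ± 0.045 (edgeR adjusted p = 4.52e-05) and Myf5 rose by 0.57 ± 0.070 (edgeR adjusted p = 1.37e-07), so both calls held.

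In differentiation medium, Myog moved most with AA. It rose by 0.94 ± 0.066, or 1.92-fold (edgeR adjusted p = 5.03e-13), at 59.4 ± 5.16 RPKM in DM-AA and 30.7 ± 1.44 RPKM in DM-PBS (SD, n = 3 libraries per group). The rise was larger in size than that of 98.2% of the tested genes. Myf5 rose by 0.27 ± 0.068 (edgeR adjusted p = 0.00317), at 22.1 ± 1.53 RPKM in DM-AA and 18.2 ± 0.581 RPKM in DM-PBS. Myod1 averaged 60.5 ± 0.307 RPKM in DM-AA and 57.6 ± 1.01 RPKM in DM-PBS, a difference of 0.059 ± 0.050 that did not pass (edgeR adjusted p = 0.425, 95% interval -0.043 to 0.16). Of the 3 tested members, 2 passed the test, as did 26.4% of all tested genes (12.6% higher and 13.8% lower). The Myod1 libraries of the 2 groups did not overlap, which is a description only. After removal of the trend with GC and length, Myod1 passed at 0.15 ± 0.047 (edgeR adjusted p = 0.0157).

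Between the media, Myog rose in both treatments. In cells given PBS it was 2.58 ± 0.097 higher on the log2 scale in DM-PBS than in GM-PBS, or 5.96-fold (edgeR adjusted p = 3.07e-21). In cells given AA it was 3.17 ± 0.085 higher in DM-AA than in GM-AA, or 8.98-fold (edgeR adjusted p = 4.98e-25), a change larger in size than that of 99.7% of the tested genes. Myod1 and Myf5 passed the test between the media in cells given PBS and not in cells given AA. With PBS, Myod1 fell by 0.45 ± 0.049 (edgeR adjusted p = 1.98e-09) and Myf5 rose by 0.43 ± 0.073 (edgeR adjusted p = 8.54e-06) in DM-PBS against GM-PBS. With AA, the differences of DM-AA from GM-AA were -0.049 ± 0.050 for Myod1 (edgeR adjusted p = 0.436, 95% interval -0.15 to 0.053) and 0.056 ± 0.067 for Myf5 (edgeR adjusted p = 0.512, 95% interval -0.080 to 0.19). All 3 tested members passed with PBS, where 54.4% of tested genes did (27% higher and 27.4% lower), and 1 of 3 passed with AA, where 52.2% did (25.9% higher and 26.3% lower). The comparisons of media share their libraries with those of AA and are not separate evidence.

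The effect of AA depended on the medium for each tested member. The difference of the effects, DM minus GM, was 0.40 ± 0.070 for Myod1 (edgeR adjusted p = 0.000341), -0.37 ± 0.099 for Myf5 (edgeR adjusted p = 0.0207) and 0.59 ± 0.15 for Myog (edgeR adjusted p = 0.0105). Hence 3 of 3 tested members passed, against 5.24% of all tested genes (2.58% with a positive and 2.67% with a negative difference). The Myod1 call held in each of the 12 fits without 1 library. The Myf5 call was lost without GM-PBS 1 (edgeR adjusted p = 0.0618), GM-AA 3 (0.0966) or DM-AA 1 (0.0660), and the Myog call without GM-PBS 3 (0.0602) or GM-AA 1 (0.0510).

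Myf6, fitted with no filter on low counts, passed in none of the 5 comparisons. Its largest ratio was that of DM-PBS to GM-PBS, 1.05 ± 0.52 on the log2 scale (edgeR adjusted p = 0.0974, unadjusted p = 0.0427). Its libraries did not overlap there, a description that rests on few reads in each. The 95% intervals of the AA effects ran from -0.32 to 1.82 in GM and from -1.05 to 0.72 in DM.

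**Figure D2:**
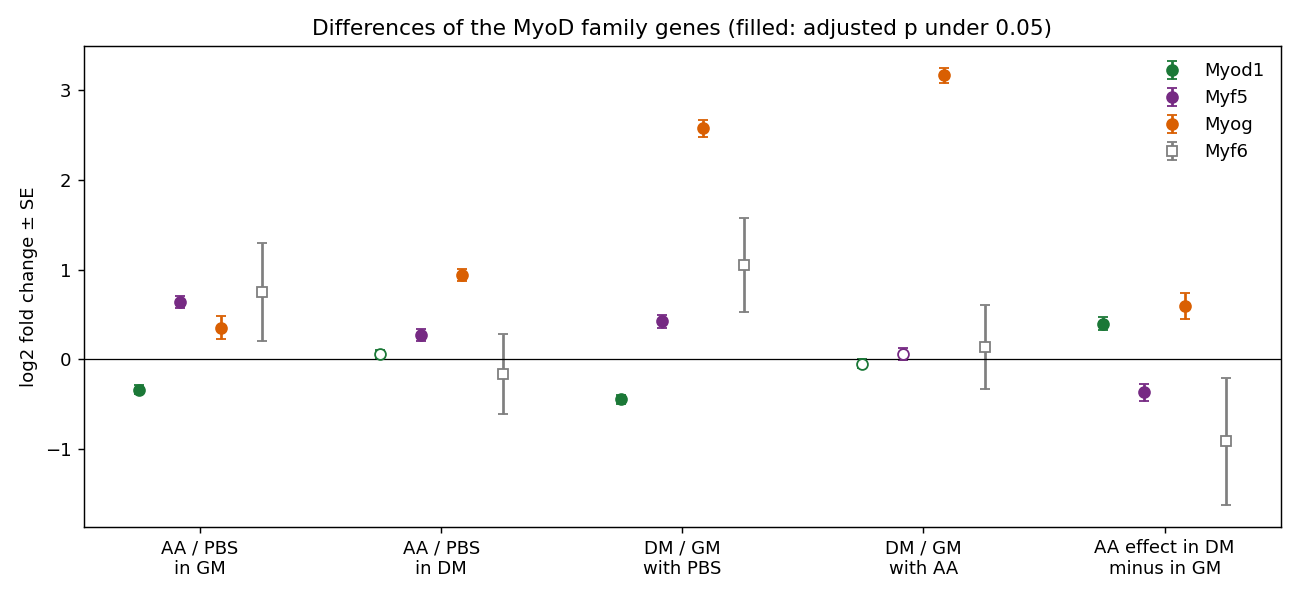
Log2 fold change ± SE of each member in the 5 comparisons (vertical axis); filled marks passed 5% FDR and open marks did not, and squares are Myf6 from the fit with no filter on low counts. Myog lies at 2.58 and 3.17 between the media, whereas Myod1 and Myf5 lie near 0 between the media in cells given AA.

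Ordered by level, the 4 groups ran differently for each gene. For Myog the order was DM-AA, DM-PBS, GM-AA and GM-PBS, and each neighbouring pair passed the test, the last with the weak call above. For Myf5 the order was DM-AA, GM-AA, DM-PBS and GM-PBS. DM-AA and GM-AA did not differ beyond their spread, while DM-PBS lay 0.21 ± 0.068 under GM-AA (edgeR adjusted p = 0.00763). For Myod1, GM-PBS came first and passed against each other group, and GM-AA, DM-AA and DM-PBS followed with no pair among them past the test. DM-PBS lay 0.11 ± 0.050 under GM-AA for Myod1 (edgeR adjusted p = 0.0631).

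The make-up of the family, as a share of its summed RPKM, moved from Myod1 towards Myog. Myog made up 41.7 ± 1.74% in DM-AA, 28.7 ± 0.550% in DM-PBS, 7.25 ± 0.670% in GM-AA and 5.28 ± 0.587% in GM-PBS (SD, n = 3 libraries). Myod1 made up 42.5 ± 2.05% in DM-AA, 53.9 ± 0.562% in DM-PBS, 68.9 ± 1.70% in GM-AA and 80.6 ± 1.51% in GM-PBS. Its share was lower with AA in both media. A share depends on the other members, so it can fall while the gene's own level does not. In DM the level of Myod1 was 60.5 RPKM with AA and 57.6 RPKM with PBS. The level of Myf5 there was 22.1 RPKM with AA and 18.2 RPKM with PBS, although its share was lower with AA. The Myf5 share was 15.5 ± 0.371% in DM-AA, 16.99 ± 0.314% in DM-PBS, 23.4 ± 1.25% in GM-AA and 13.9 ± 0.912% in GM-PBS, highest in GM-AA. The ratio of Myog to Myod1 (RPKM) was 0.887 to 1.06 in DM-AA, 0.519 to 0.549 in DM-PBS, 0.0942 to 0.117 in GM-AA and 0.0565 to 0.0731 in GM-PBS, with the DM-AA libraries on either side of equal levels. Summed over the family, the level was 142 ± 6.56 RPKM in DM-AA, 107 ± 2.99 in DM-PBS, 89.0 ± 5.99 in GM-AA and 95.6 ± 2.41 in GM-PBS. These shares and ratios are descriptions per length, and no test was run on them.

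**Figure D3:**
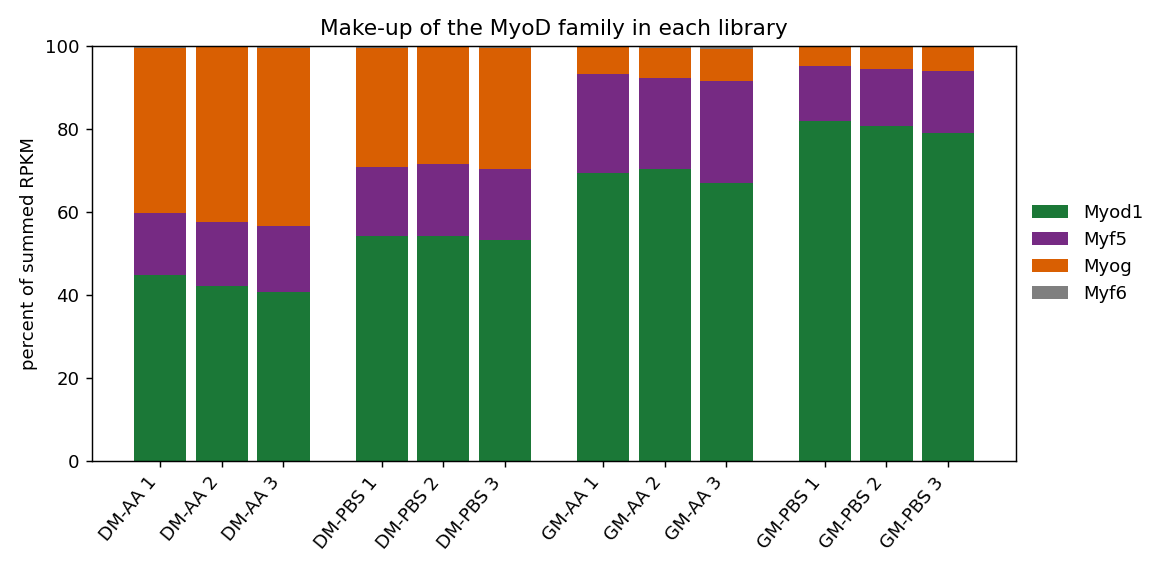
Share of each member in the family's summed RPKM (percent, vertical axis) in the 12 libraries. Myog takes 39.7% to 43.1% in DM-AA and 4.63% to 5.77% in GM-PBS, and the share of Myf6, at most 0.694% in a library, is too thin to see.

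All 3 E proteins, the dimer partners of the family, were tested. This list and those below were written with earlier results of these data known, so their counts are descriptions. Of them 2 rose in DM-PBS against GM-PBS, where 27% of all tested genes rose, 3 rose in DM-AA against GM-AA, where 25.9% did, and 1 rose with AA in each medium, where 9.76% did in GM and 12.6% in DM. Tcf4 and Tcf12 rose with DM in both treatments, by 1.27 ± 0.056 and 0.57 ± 0.046 in DM-PBS against GM-PBS and by 1.01 ± 0.055 and 0.67 ± 0.045 in DM-AA against GM-AA. Tcf3 rose in DM-AA against GM-AA by 0.27 ± 0.059 and stood at 0.11 ± 0.058, not past the test, in DM-PBS against GM-PBS. With AA, Tcf4 rose in GM by 0.25 ± 0.058 and Tcf12 in DM by 0.15 ± 0.044, and the Tcf12 call was lost with the GC trend removed (edgeR adjusted p = 0.0550) and without DM-PBS 1 or DM-AA 2. With AA in GM 0 fell, and 1 fell with no filter on low counts and without GM-AA 3 or DM-AA 2. Of the 4 Mef2 genes, 3 were tested, and 2 rose and 0 fell in each comparison of the media. Mef2a averaged 140 ± 8.38 CPM in DM-AA, 99.6 ± 8.19 in DM-PBS, 65.2 ± 6.32 in GM-AA and 58.6 ± 2.54 in GM-PBS, and rose with AA in DM by 0.48 ± 0.061 (edgeR adjusted p = 1.64e-07). Mef2c, at 2.03 to 3.89 CPM, was the 1 Mef2 gene past the test with AA in GM, at 0.85 ± 0.25 (edgeR adjusted p = 0.0128), a call lost without GM-PBS 1 or GM-AA 2, with DESeq2 (adjusted p = 0.0504) and with limma on log2(RPKM + 0.5), while 2 Mef2 genes rose without GM-AA 1.

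Inhibitors of the family were lower with AA in both media more often than higher, on a list written with earlier results of these data known. Of 22 inhibitors, 19 were tested: 7 fell and 1 rose with AA in GM, with a list median of -0.17 against -0.0034 over all tested genes, and 8 fell and 3 rose in DM, with a median of -0.17 against 0.0021. Of all tested genes, 11% fell and 9.76% rose with AA in GM, and 13.8% fell and 12.6% rose in DM. Id1, which binds the E proteins, was at 35.4 ± 0.762 CPM in DM-AA, 51.4 ± 1.30 in DM-PBS, 167 ± 9.82 in GM-AA and 241 ± 19.5 in GM-PBS, in the reverse of the order of Myog. Between the media, 7 inhibitors rose and 7 fell in DM-PBS against GM-PBS, and 6 rose and 6 fell in DM-AA against GM-AA, where 27% and 25.9% of all tested genes rose and 27.4% and 26.3% fell. With AA, Id1 fell by 0.54 ± 0.075 in DM (edgeR adjusted p = 1.09e-06). Id1 also fell by 2.23 ± 0.060 in DM-PBS against GM-PBS (edgeR adjusted p = 5.80e-25). Id2 differed from Id1 with AA in DM, where it rose by 0.26 ± 0.096 (edgeR adjusted p = 0.0450). Like Id1, Id2 fell with AA in GM (-0.46 ± 0.063) and in DM-PBS against GM-PBS (-2.15 ± 0.077). It was at 22.6 ± 1.45 CPM in DM-AA, 18.9 ± 0.942 in DM-PBS, 61.3 ± 4.89 in GM-AA and 84.1 ± 4.97 in GM-PBS. Its difference of AA effects was 0.71 ± 0.12 (edgeR adjusted p = 0.000122). Id3 did not pass with AA in DM, at -0.19 ± 0.088 (edgeR adjusted p = 0.120). Among the E-box repressors, Snai1 fell most clearly in GM (0.71 ± 0.060 lower in GM-AA) and Snai2 in DM (0.55 ± 0.051 lower in DM-AA). Not all of them fell: Zeb1 rose with AA in DM by 0.33 ± 0.050 (edgeR adjusted p = 5.15e-06). It is named as an exception to the naming rule, after its values were seen.

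Of 19 upstream factors 12 were tested, and 9 rose and 1 fell in DM-PBS against GM-PBS, where 27% of all tested genes rose and 27.4% fell (median 0.34, against 0.0071 over all tested genes), among them Six4 at 0.75 ± 0.054. The count that fell was 3 after removal of the trend with GC and length. In DM-AA against GM-AA, 7 rose and 3 fell, where 25.9% of all tested genes rose and 26.3% fell. With AA, 1 rose and 3 fell in GM and 2 rose and 5 fell in DM, where the shares of all tested genes were those given for the inhibitors. The 2 that rose in DM numbered 0 without DM-PBS 3 or DM-AA 2 and 1 without DM-PBS 1, DM-PBS 2 or DM-AA 3, and 1 with DESeq2 and both limma settings. The count that rose in GM was 2 without GM-AA 1 or DM-PBS 1, with no filter and after removal of the GC and length trend, and 3 with scaling by total count. Among 20 co-activators and chromatin partners, all tested, 1 rose and 5 fell with AA in GM, and 1 rose and 6 fell in DM. The shares of all tested genes were 9.76% up and 11% down in GM and 12.6% up and 13.8% down in DM. In GM, 2 fell without GM-PBS 1 or GM-AA 1 and with both limma settings, 2 rose and 3 fell with scaling by total count, and 2 rose with DESeq2 or after removal of the GC and length trend. In DM, 3 fell without DM-AA 3, and 4 fell without GM-PBS 3, DM-PBS 1, DM-PBS 2, DM-AA 1 or DM-AA 2. The count that fell was also 4 with RLE or total-count scaling, the replicate block, GC and length trends removed, DESeq2 or limma. In DM, 2 rose with scaling by total count or limma, and 0 rose without DM-PBS 2, DM-PBS 3, DM-AA 1 or DM-AA 2. In DM-PBS against GM-PBS, 10 rose and 4 fell.

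Known targets of the family rose with AA in both media far more often than they fell. The list was written with earlier results of these data known, so its counts are a description and not separate evidence. Of 42 symbols written for the list, including 2 pairs of old and new names, 37 were tested. With AA, 26 rose and 0 fell in DM, with a median of 0.64 against 0.0021 over all tested genes, and 13 rose and 1 fell in GM, with a median of 0.36 against -0.0034. The shares of all tested genes were 12.6% up and 13.8% down in DM and 9.76% up and 11% down in GM. In DM the cardiac actin Actc1 rose by 1.64 ± 0.11 and Rbm24, a muscle RNA-binding protein, by 1.37 ± 0.097. In GM the acetylcholine receptor subunits Chrnd and Chrna1 rose by 0.59 ± 0.058 and 0.36 ± 0.046. The 1 target that fell in GM, Musk, at -0.25 ± 0.085, was singled out after its values were seen, and its call was among those lost without GM-PBS 1, GM-PBS 3, GM-AA 1 or GM-AA 2, and with total-count scaling, DESeq2 and both limma settings, when 0 fell. Without GM-PBS 2, 2 fell. The difference of AA effects, DM minus GM, was positive past the test for 7 targets and negative for 0, and for inhibitors positive for 3 and negative for 3. It was positive past the test for 2.58% of all tested genes and negative for 2.67%. Between the media, 19 targets rose and 6 fell in DM-PBS against GM-PBS (median 0.40), and 25 rose and 3 fell in DM-AA against GM-AA (median 0.62). There, 27% of all tested genes rose and 27.4% fell with PBS, and 25.9% rose and 26.3% fell with AA. The skeletal actin Acta1, which fell by 1.34 ± 0.12 in DM-PBS against GM-PBS, belongs with Actc1 to a family of near-identical genes, so the values of both are uncertain.

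**Figure D4:**
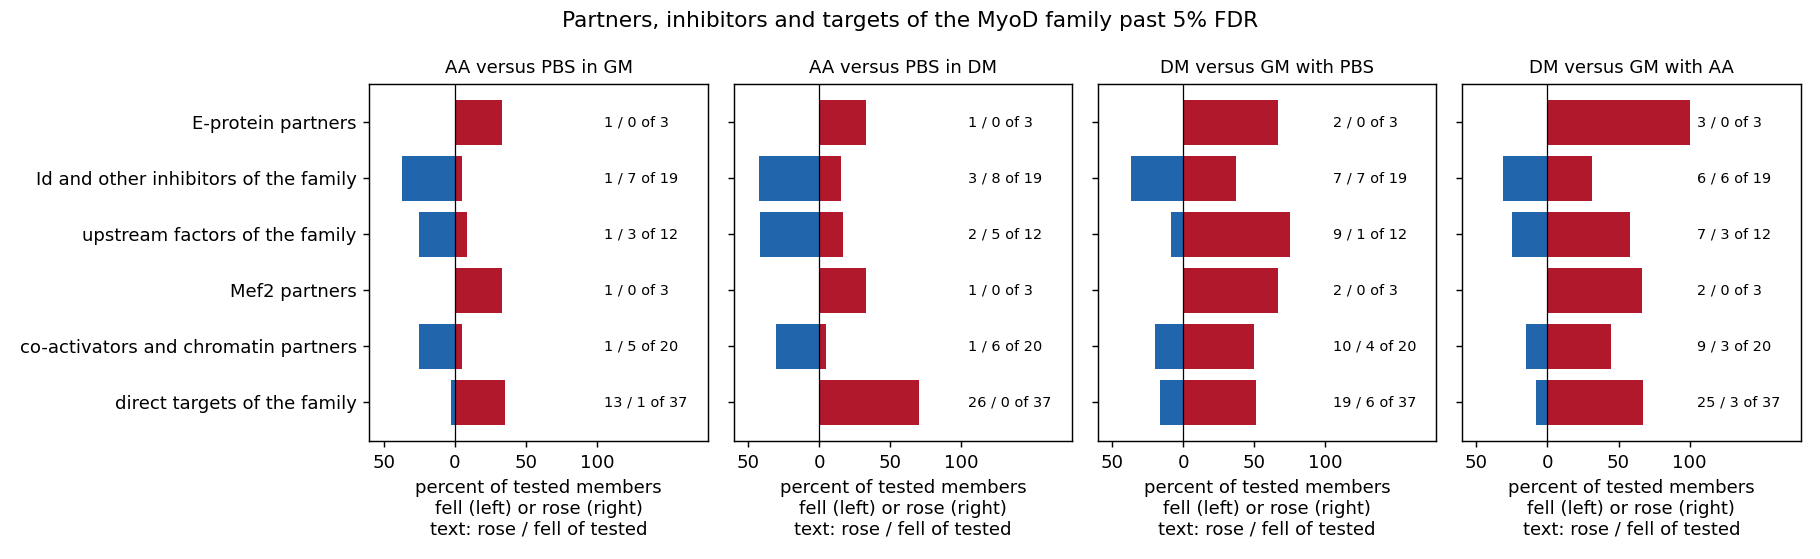
Share of the tested members of each list that passed 5% FDR (horizontal axis, percent; red rose, blue fell) in 4 comparisons, with the counts beside the bars. With AA in DM, 26 targets rose and 0 fell of 37, and 8 inhibitors fell and 3 rose of 19. In that comparison 12.6% of all tested genes rose and 13.8% fell. The lists were written with earlier results of these data known.

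The genes whose pattern was most like each member were ranked by Pearson's r of log2 CPM over the 12 libraries, among 10415 genes with a mean of at least 5 CPM. The values are descriptions, since the 12 libraries fall into 4 groups that set most of r. The genes were chosen by r over these same libraries, so a shared order of groups follows from the choice. For Myog the 5 highest were Olfml2b (0.998), Lrrn1 (0.997), Trp53inp2 (0.996), Frmpd1 (0.996) and Stra6 (0.996), the last the cell surface receptor for retinol-binding protein. The 3 lowest were Lhfp (-0.997), the BMP antagonist Grem1 (-0.994) and Id1 (-0.993). Olfml2b averaged 467 CPM in DM-AA, 323 in DM-PBS, 127 in GM-AA and 109 in GM-PBS, the same order of groups as Myog. Stra6 averaged 13.1 CPM in DM-AA, 6.99 in DM-PBS, 0.924 in GM-AA and 0.753 in GM-PBS. It reached the mean of 5 CPM only through the DM groups, where Myog is high, so its place here is no support.

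For Myod1 the 5 highest were Meis1 (0.932), a homeobox factor known to bind beside MyoD, Jak3 (0.919), Fam19a5 (0.917), 5330426P16Rik (0.906) and Tigit (0.905). Meis1 averaged 23.6 CPM in DM-AA, 22.8 in DM-PBS, 25.95 in GM-AA and 31.1 in GM-PBS, high in GM-PBS as Myod1 was. The lowest were Ralb (-0.950), the potassium channel Kcnj2 (-0.944) and the linker histone H1f0 (-0.944). Tigit averaged 4.3 CPM in DM-AA, 4.73 in DM-PBS, 4.90 in GM-AA and 9.51 in GM-PBS. It reached the mean of 5 CPM only through GM-PBS, where Myod1 is high, so its place here is no support. For Myf5 the highest were the matrix protein Postn (0.961), Car13 (0.953), Chrnd (0.951), Zfp62 (0.945) and Lims1 (0.942), and the lowest were Chp1 (-0.948), Ddit4 (-0.943) and Rnf19a (-0.933). Chrnd, named above as a target that rose with AA in GM, averaged 92.8 CPM in DM-AA, 71.1 in DM-PBS, 79.0 in GM-AA and 52.3 in GM-PBS, in the order of groups of Myf5. For Myf6 the highest r was 0.865, with Idnk, and rests on 3 to 11 reads per library.

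**Figure D5:**
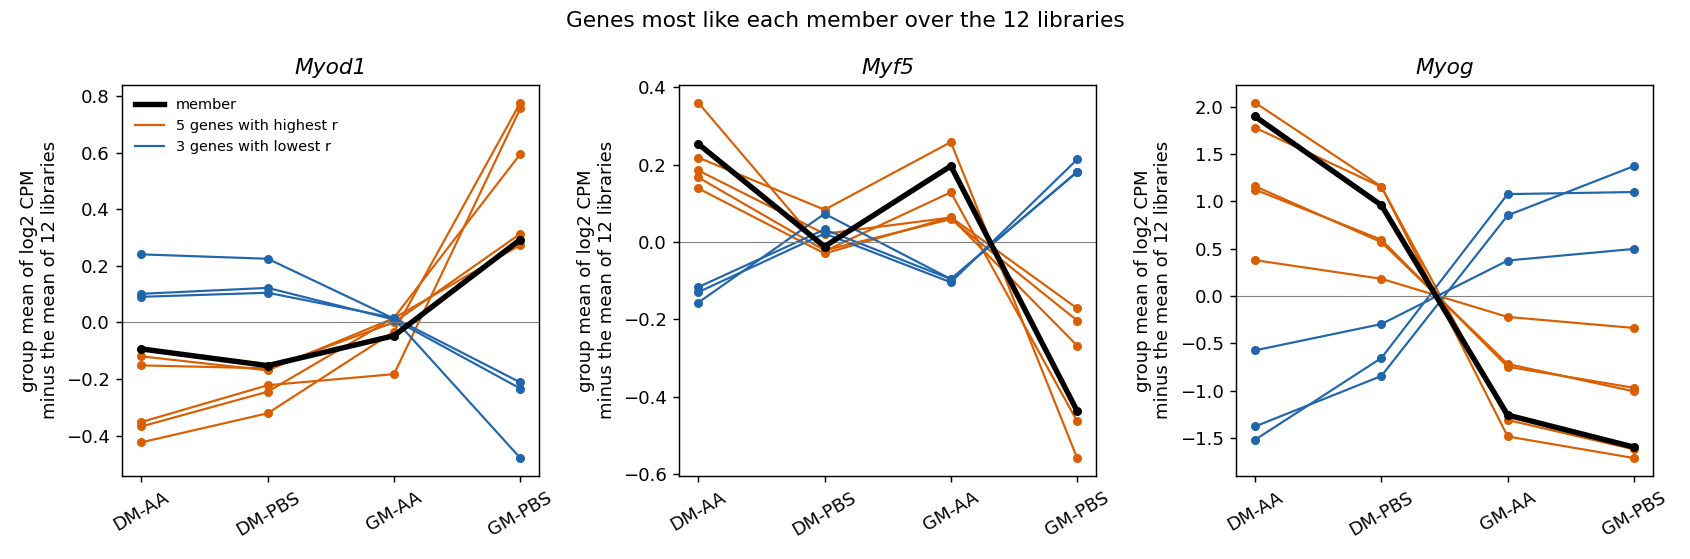
Group means of log2 CPM minus the mean of the 12 libraries (vertical axis) for Myod1, Myf5 and Myog (black), the 5 genes with the highest r (orange) and the 3 with the lowest (blue). Genes like Myog descend from DM-AA to GM-PBS, those like Myod1 are raised in GM-PBS, and those like Myf5 are lowest in GM-PBS. These shapes follow from the choice of genes by r over the same libraries.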

How the data were processed

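RNA-seq of 12 C2C12 libraries was analysed from a deposited table of raw read counts and RPKM values, made by the authors. The submitters' processing notes name BWA 0.5.9-r16 and the mm9 build. How reads were counted, with which strand setting and gene models, is not stated in these sources. Gene length is a union of exons per the file headers, and the deposited RPKM followed from counts, length and 1 divisor per library within 0.0005%. The deposited counts were tested with edgeR 4.0.16 (filterByExpr, TMM, glmQLFit and glmQLFTest, two-sided, 1 fit of 4 group means over the 12 libraries; 12230 of 23446 genes), with Benjamini-Hochberg adjustment over all tested genes and a 5% FDR. The SE is the absolute log2 fold change over the root of F. A low-count gene, Myf6, was taken from a fit with no filter. RPKM served for levels. Replicates of a group differed by more than counting noise (chi-square per degree of freedom 1.45 to 2.90). Names, GC content and coding sequences came from GENCODE M21, and promoters from RefSeq (GRCm38.p6).

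The members and gene lists were chosen with earlier results of these data known. Besides the 4 members, up to 3 past-threshold genes of a list with the smallest p, and the 5 most and 3 least alike genes per member, were named; exceptions are stated, and 1 gene of the upstream list is not reported here by name. Lists were E-protein, Mef2 and co-activator partners, inhibitors, upstream factors, targets, and markers of myoblasts and of other cell types. Alternatives were RLE and total-count scaling, no filter, DESeq2 1.42.0, limma 3.58.1 on log2(RPKM + 0.5) or log2(RPKM + 0.1), only the groups compared, a replicate block, removal of GC and length trends, and leaving out each library.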

Additional observations from a re-analysis of the deposited data

Results flagged for a closer look

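The effect of AA differed between the media for Myod1, Myf5 and Myog by a test of the difference itself (the interaction in edgeR's quasi-likelihood fit, Benjamini-Hochberg adjusted). For Myod1 the difference, DM minus GM, was 0.40 on the log2 scale, with AA effects of 0.059 ± 0.050 in DM and -0.34 in GM. The effect in DM did not pass the test (edgeR adjusted p = 0.425), so no rise of Myod1 with AA is shown there. All GM-AA libraries lay below all GM-PBS libraries, and all DM-AA libraries above all DM-PBS libraries. That is a description only, since the share of all tested genes that separate in this way was not counted. For Myf5 it was -0.37, with AA above PBS in both media, by 0.27 in DM and by 0.64 in GM. For Myog it was 0.59, with AA effects of 0.94 in DM and 0.35 in GM.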

How the results depend on the processing

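Under the settings other than leaving out 1 library, no member changed direction in a comparison where the setting was run: 10 for Myod1, Myf5 and Myog in the comparisons of AA and of media, 9 for their difference of AA effects, and 7 to 9 for Myf6. The call of Myog with AA in GM was lost with only the groups compared (0.36), and over the 12 fits without 1 library it ran between 0.23 and 0.48. Myod1 with AA in DM gained a call with the GC and length trend removed, at 0.15, with or without the replicate block. The Myf5 difference of AA effects was not past the threshold with limma on log2(RPKM + 0.5) (-0.36) or log2(RPKM + 0.1) (-0.37), and without 1 library ran between -0.42 and -0.28; that of Myog ran between 0.47 and 0.71. The cause was not tested. Without 1 library Myf6 changed sign with AA in DM (-0.34 to 0.12) and in DM-AA against GM-AA (-0.16 to 0.63), on a few reads each. The replicate block changed no call of a member, with 2444 genes past the threshold with AA in GM, against 2534 without it. Replicate numbers did not pair the libraries: same-numbered deviations correlated at -0.068 to 0.082, and 3 of 12 libraries correlated best with their own number. Counts of genes past the threshold stayed within 1.5 times under every setting run, the lowest being 429 of 641 for the difference of AA effects. For the called genes with the smallest p in each list and comparison, 50 results were checked under some of the settings. These were removal of GC and length trends, the replicate block, DESeq2 and total-count scaling. The fit without 1 library that gave the highest adjusted p was also used. Of these 50 results, 4 lost their call under a setting checked and 0 changed direction. Not every gene result named above is among them.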
